A study of Mus musculus with 6 samples.

Results

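Prostaglandin and nitric oxide synthesis was followed through 10 genes: the cyclooxygenases Ptgs1 and Ptgs2, the prostaglandin E synthases Ptges, Ptges2 and Ptges3, the prostacyclin synthase Ptgis, the phospholipases Pla2g4a and Pla2g12a, the inducible nitric oxide synthase Nos2, and Ass1, which returns citrulline to arginine. They were chosen by gene symbol, and all 10 were among the 16880 genes listed. RNA was sequenced in 6 libraries of mouse cells that all received IL-1β at 10 ng/mL. In 3 of them IL-1β was given alone, and in the other 3 it was given together with NP-G2-044 at 10 μM, a small molecule inhibitor of the actin-bundling protein FSCN1. The exposure was 24 h. The labels name the cells ATDC5, a chondrogenic mouse cell line, whereas the methods describe primary articular chondrocytes. The treatment label of the inhibitor samples reads NP-G2-047, while their titles and treatment protocol read NP-G2-044. The DMSO group of the study is not analysed here, so no value shows what IL-1β itself did, and each comparison is of inhibitor-treated cells with those given IL-1β only.

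Prostaglandins are made in steps. Phospholipases A2 free arachidonic acid from membrane lipids, cyclooxygenases turn it into prostaglandin H2, and terminal synthases turn that into prostaglandin E2, prostacyclin and the other prostanoids. Nitric oxide synthases make nitric oxide from arginine with tetrahydrobiopterin as a cofactor, and leave citrulline. In cartilage, IL-1β is known as a strong inducer of the inducible enzymes of both routes, which are widely used as readouts of inflammation in osteoarthritis work.

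Library totals lay between 16615824 and 17735860 reads, and a library held reads of 14155 to 14383 genes. Of the 10 genes, 8 had enough reads to be tested, and Ptgis and Ass1 did not. With NP-G2-044, Pla2g12a, Pla2g4a, Ptgs2, Ptges3 and Ptges2 were higher, and Nos2, Ptges and Ptgs1 were lower, at an adjusted p below 0.05 by the quasi-likelihood test in edgeR (Benjamini-Hochberg adjustment, 11983 genes). That threshold alone separates little here, because 40.2% of all tested genes were called higher and 39.8% were called lower. Also past a log2 fold change of 1 in size were Pla2g12a and Pla2g4a, higher, and Nos2 and Ptges, lower, against a background of 6.48% of tested genes higher and 10.1% lower past both cutoffs. In 7 of the 8 genes the TPM (a read level scaled by transcript length and by library) of the 2 groups did not overlap, beside 79.4% of all tested genes. Bulk RNA cannot tell fewer cells expressing a gene from less of its RNA per cell.

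The stretches around the transcription start of 3 genes that were higher with NP-G2-044 are shown as sequence: the inducible cyclooxygenase, and the phospholipases with the largest rises among the 10 genes. Each runs from 220 bases before the RefSeq start through the first 30 bases from it, 5′ to 3′ on the gene's strand, in GRCm38.p6, the assembly known as mm10. The Ptgs2 window is chr1:150099811-150100060 on the plus strand, the Pla2g4a window is chr1:149961261-149961510 on the minus strand, and the Pla2g12a window is chr3:129880964-129881213 on the plus strand, where it surrounds a start inside the gene's span. Capitals mark matches to any of 6 motifs searched on both strands.
Ptgs2: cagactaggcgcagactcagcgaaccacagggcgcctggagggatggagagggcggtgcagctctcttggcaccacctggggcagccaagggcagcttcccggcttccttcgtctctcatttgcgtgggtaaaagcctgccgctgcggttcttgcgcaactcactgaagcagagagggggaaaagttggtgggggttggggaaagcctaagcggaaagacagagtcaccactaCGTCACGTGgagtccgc
Pla2g4a: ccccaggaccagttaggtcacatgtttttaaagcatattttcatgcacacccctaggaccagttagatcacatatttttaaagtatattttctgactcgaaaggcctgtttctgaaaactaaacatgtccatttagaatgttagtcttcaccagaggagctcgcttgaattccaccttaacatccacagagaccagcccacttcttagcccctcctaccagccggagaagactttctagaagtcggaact
Pla2g12a: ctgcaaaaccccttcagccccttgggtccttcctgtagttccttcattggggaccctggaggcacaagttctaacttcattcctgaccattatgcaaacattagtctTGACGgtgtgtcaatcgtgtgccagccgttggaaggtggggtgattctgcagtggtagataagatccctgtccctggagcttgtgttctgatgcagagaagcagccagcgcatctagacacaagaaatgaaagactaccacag

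The Ptgs2 window held the cAMP response motif TGACG on its reverse strand, overlapping the E-box CACGTG just past the RefSeq start. Where transcription began in these cells was not measured, so the motifs may lie elsewhere relative to the start in use. TGACG occurred in 18.8% and CACGTG in 6.37% of all 32851 RefSeq windows of this length. The Pla2g12a window held TGACG upstream of its start, and the Pla2g4a window shown held none of the 6 motifs. A second RefSeq window of Pla2g4a, not shown, held the TATA box on its reverse strand, upstream of its start. The others searched were the TATA box TATAAA, found in 11.7% of all windows, the AP-1 motif TGANTCA in 6.68%, the C/EBP-ATF motif TGATGNAA in 3.45% and an NF-κB motif, GGG, any 2 bases, T, any base and TCC, in 4.59%. Windows were available for 8 of the 10 genes. A match is a run of letters only, and no binding was measured.

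The phospholipases, which open the prostaglandin route, were both higher with the inhibitor. Pla2g4a (Entrez 18783, chr1:149829618-149961290) encodes the cytosolic phospholipase A2 that prefers arachidonic acid. Its level was 23.6, 24.1 and 24.3 TPM in the libraries with IL-1β and 54.0, 54.0 and 51.6 TPM in those with the inhibitor. The groups lay far apart, and the spread within each was small: 24 ± 0.33 TPM against 53.2 ± 1.35 TPM (SD, n = 3 each). This was a log2 fold change of 1.18 ± 0.04 (SE), which is 2.27-fold, with an adjusted p of 4.93e-31 by edgeR's quasi-likelihood test.

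Pla2g12a (Entrez 66350, chr3:129878606-129895825) encodes a secreted phospholipase A2 of group XII, a group known for weak enzymatic activity. It was measured at 27.1, 25.2 and 26.6 TPM with IL-1β and at 88.8, 83.0 and 79.2 TPM with the inhibitor. Every inhibitor-treated library was above every library with IL-1β alone. Means were 26.3 ± 1.02 and 83.7 ± 4.84 TPM (SD, n = 3 each), and the log2 fold change of 1.70 ± 0.05 (SE, adjusted p = 6.12e-34), or 3.24-fold, was the 283rd from the highest among the 11983 tested genes.

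**Figure D1:**
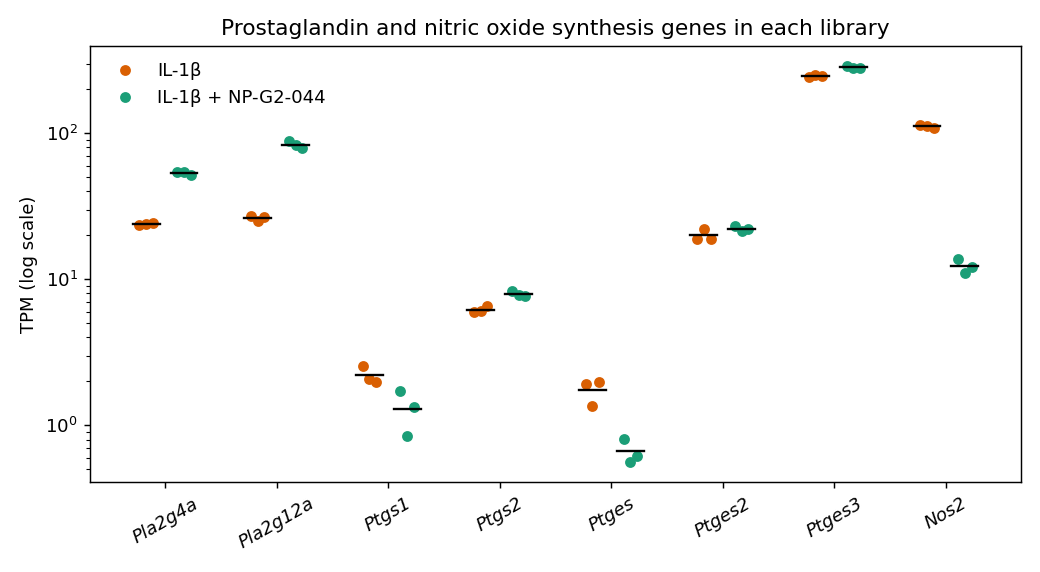
TPM of the 8 tested genes in every library, on a shared log scale, with IL-1β and with the inhibitor. Points are libraries and short lines are means (n = 3). Nos2 falls from 109 to 114 TPM to 11.1 to 13.7 TPM, and Pla2g4a and Pla2g12a rise. Ptgis and Ass1 are not drawn.

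At the cyclooxygenase step the 2 genes moved in opposite directions, and both changes were smaller than those of the phospholipases. Ptgs2 (Entrez 19225, chr1:150100031-150108234), the inducible enzyme known as COX-2, was at 6.00, 6.05 and 6.52 TPM with IL-1β. With the inhibitor it was at 8.29, 7.78 and 7.68 TPM. The lowest inhibitor-treated library was above the highest with IL-1β alone, and the mean rose from 6.19 ± 0.29 to 7.92 ± 0.33 TPM (SD, n = 3 each). That is a log2 fold change of 0.39 ± 0.07 (SE, adjusted p = 3.39e-06), a 1.31-fold difference close to 0.39, the median size of change over all tested genes.

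Ptgs1 (Entrez 19224, chr2:36216742-36258593), the constitutive enzyme known as COX-1, was near the lower end of what these libraries measure. It had 82, 63 and 62 reads with IL-1β and 56, 30 and 53 reads with the inhibitor. In TPM these were 2.56, 2.07 and 1.99 against 1.72, 0.84 and 1.34, so the groups did not overlap. The log2 fold change was -0.64 ± 0.18 (SE, adjusted p = 0.00139). Without the second inhibitor-treated library, the lowest, it was -0.41, with an adjusted p of 0.0344. An antisense gene, Gm43621, overlaps 148 exonic bases of Ptgs1, and no source used here says whether counting was by strand.

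Set side by side per length, Ptgs2 made up 70.1%, 74.5% and 76.6% of the cyclooxygenase TPM with IL-1β and 82.8%, 90.3% and 85.1% with the inhibitor. The mean Ptgs2 share was 12.3 percentage points higher with the inhibitor, 73.7 ± 3.33% against 86.1 ± 3.81% (SD, n = 3 each). The groups did not overlap, and the exact two-sided permutation test gave p = 0.1, the smallest p that 3 libraries against 3 allow.

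The 3 prostaglandin E synthases did not move together. Ptges (Entrez 64292, chr2:30889471-30931020), the microsomal, cytokine-inducible enzyme that acts downstream of COX-2, had 65.7, 46 and 68 reads with IL-1β and 29, 20 and 23 reads with the inhibitor. In TPM the libraries were at 1.91, 1.36 and 1.97 against 0.81, 0.56 and 0.62. Every inhibitor-treated library was below every library with IL-1β alone. Ptges fell by 1.39 ± 0.20 on the log2 scale (SE, adjusted p = 1.70e-08 by edgeR). On the log2(TPM + 1) scale, which compresses low levels, the change was -0.72, under the fold cutoff.

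Ptges2 (Entrez 96979, chr2:32395890-32402740), a constitutive membrane-associated enzyme, was at 18.9, 22.2 and 18.8 TPM with IL-1β and 23.3, 21.4 and 22.1 TPM with the inhibitor. These ranges overlapped. Its log2 fold change of 0.19 ± 0.07 (SE) had an adjusted p of 0.0111 by edgeR. It was not called by DESeq2 (adjusted p = 0.0598), nor by edgeR without the third IL-1β library (log2 fold change 0.14, adjusted p = 0.0817).

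Ptges3 (Entrez 56351, chr10:128058982-128077254) encodes p23, an HSP90 co-chaperone that also carries the name cytosolic prostaglandin E synthase. It was the most abundant of the 10 genes in both groups, at 243.1, 248.8 and 247.4 TPM with IL-1β and 289.7, 277.8 and 279.5 TPM with the inhibitor. The groups were apart by a small step, a log2 fold change of 0.23 ± 0.03 (SE, adjusted p = 3.58e-10). GENCODE vM21 also lists a processed pseudogene, Ptges3-ps, and the related gene Ptges3l, with which reads could be shared, so its level is uncertain to that extent.

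The summed TPM of the 3 genes named as prostaglandin E synthases was mostly Ptges3, which encodes p23. Ptges3 had means of 246.5 TPM with IL-1β and 282.4 TPM with the inhibitor. Ptges was a small part of that sum in either group. Its share of the summed TPM of the 3 synthases was 0.724%, 0.499% and 0.735% with IL-1β and 0.258%, 0.187% and 0.205% with the inhibitor. The difference in means was -0.436 percentage points, from 0.652 ± 0.13% to 0.217 ± 0.04% (SD, n = 3 each). The groups did not overlap, with an exact two-sided permutation p of 0.1, again the smallest possible. From CPM in place of TPM, so not per length, the difference was -0.836 percentage points.

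Prostacyclin synthase, Ptgis (Entrez 19223, chr2:167203194-167252150), was almost undetected. It had 2 reads in the third IL-1β library and 0 in each of the other 5, and no fold is given. With the inhibitor, where all libraries had 0 reads, a count of 0 allows up to 3 reads over the group, or 0.0567 CPM (counts scaled by the library total alone), which covers counting error only.

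**Figure D2:**
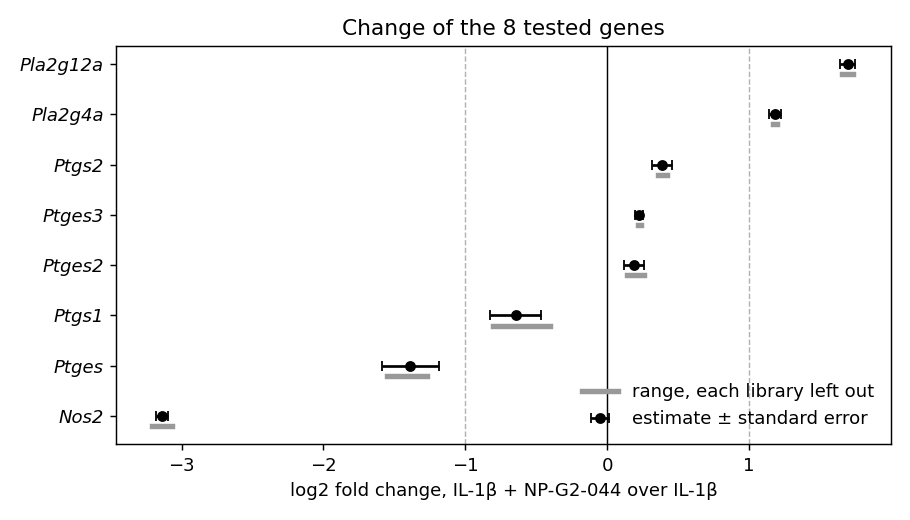
Log2 fold change ± SE of the 8 tested genes, inhibitor-treated over IL-1β alone, from edgeR, with dashed lines at a log2 fold change of 1 in either direction. Nos2 at -3.14 and Ptges at -1.39 lie beyond the lower line, Pla2g4a at 1.18 and Pla2g12a at 1.70 beyond the upper one, and the remaining 4 lie between.

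Nos2 showed the largest change of the 8 tested genes. Nos2 (Entrez 18126, chr11:78920787-78960226) encodes the calcium-independent synthase that makes large amounts of nitric oxide in stimulated cells. Its level was 114, 112 and 109 TPM in the 3 libraries with IL-1β, backed by 4746, 4526 and 4519 reads. With the inhibitor it was 13.7, 11.1 and 12.2 TPM, from 598, 497 and 548 reads. Levels in the inhibitor-treated libraries were thus far below the lowest with IL-1β alone, and the group means were 111 ± 2.27 and 12.3 ± 1.29 TPM (SD, n = 3 each). The log2 fold change was -3.14 ± 0.04 (SE, adjusted p = 3.46e-40), so 11.3% of the IL-1β level remained, an 8.82-fold reduction. It ranked as the 180th lowest of the 11983 fold changes. Leaving out any single library gave values from -3.21 to -3.07.

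Ass1 (Entrez 11898, chr2:31470270-31520670) encodes argininosuccinate synthase, which begins the return of citrulline to arginine. It had 0 reads in all 6 libraries, in both groups, and no fold is given. A count of 0 allows up to 3 reads over a group, or 0.0597 CPM with IL-1β and 0.0567 CPM with the inhibitor. These limits cover counting error only. The annotation used for counting is not given, and whether reads of Ass1 were missed in counting was not tested.

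The order of levels per length changed at a single place. With IL-1β it ran, from the highest TPM, Ptges3, Nos2, Pla2g12a, Pla2g4a, Ptges2, Ptgs2, Ptgs1, Ptges, Ptgis, and Ass1 at 0. With the inhibitor, Nos2 moved from second place to just below Ptges2, and the order of the others was kept, with Ptgis and Ass1 both at 0. Within a group, library ranges of neighbours in this order overlapped only for Ptgis and Ass1. The inducible enzymes Nos2 and Ptgs2 parted from each other. The TPM of Nos2 over that of Ptgs2 was 18.9, 18.4 and 16.7 with IL-1β and 1.65, 1.43 and 1.59 with the inhibitor. Over the same libraries the TPM of Pla2g4a over that of Ptgs2 was 3.94, 3.98 and 3.73 against 6.51, 6.93 and 6.72.

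**Figure D3:**
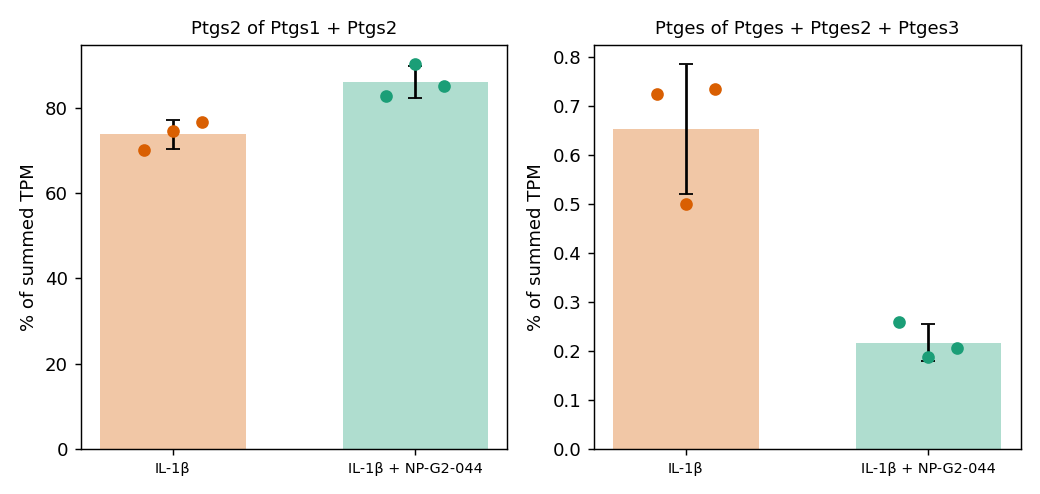
Share of Ptgs2 in the summed TPM of Ptgs1 and Ptgs2, and share of Ptges in the summed TPM of Ptges, Ptges2 and Ptges3, in percent, by group. Points are libraries and bars are means ± SD (n = 3); the Ptgs2 share is higher in every inhibitor-treated library and the Ptges share is lower.

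The genes whose pattern over the 6 libraries was most like that of Nos2 were Olfml3, C1ra and Micall2. Likeness was measured as the root mean square difference of log2 CPM, each gene centred on its own mean, over 8335 genes. It came to 0.069 for Olfml3, 0.0754 for C1ra and 0.102 for Micall2, whose log2 fold changes were -3.06, -3.08 and -3.17. Those closest to Ptgs2 were Rrn3 at 0.0181, Zfp106 at 0.0201 and Zfp276 at 0.0218, with log2 fold changes of 0.40, 0.38 and 0.38. With 2 groups, this mostly picks genes with a similar fold change.

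Other genes of both pathways were taken from a list of 114 symbols grouped by role, of which 96 were in the table and 59 were tested. Among these, 16 (27.1%) were higher, 30 (50.8%) were lower and 13 did not pass the test, beside 40.2% higher and 39.8% lower of all tested genes. Past both cutoffs, 5 (8.47%) were higher and 13 (22%) lower, beside 6.48% and 10.1% of all tested genes. On the log2(TPM + 1) scale these counts were 4 and 11, without Aloxe3, Pla2g4c and Slco2a1. The 59 genes had a median log2 fold change of -0.12 against 0.00 over all tested genes. Prostanoid and leukotriene genes and nitric oxide genes differed in these counts. Of 29 tested genes of the former, 3 were higher and 18 lower (median -0.37), and of 22 of the latter, 11 were higher and 7 lower (median 0.24). The difference between the lists was not tested, and the counts by role that follow are of few genes each, to be read against the same shares.

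Among 10 tested genes of arachidonate release other than Pla2g4a and Pla2g12a, 1 was higher and 6 were lower, 1 of these being Acsl4 (log2 fold change -0.08), which DESeq2 did not call (adjusted p = 0.0906). The most abundant was Lpcat3, which puts arachidonate back into phospholipids. It fell by 0.74 ± 0.05 on the log2 scale (SE, adjusted p = 1.41e-19), from 40.2 ± 1.62 to 23.5 ± 0.91 TPM, and it shares 334 exonic bases with the antisense gene Emg1. Pla2g4c, a phospholipase with 83 reads over the IL-1β group and 24 over the other, was the only 1 of the 10 past both cutoffs, with a log2 fold change of -1.85, or -0.51 on the log2(TPM + 1) scale.

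The tested terminal synthases other than Ptges, Ptges2 and Ptges3 fell or did not pass the test. Of 5 tested, 3 were lower and 0 higher by edgeR. Others on this list had too few reads to be tested. Over the IL-1β group and the other, Akr1b7 had 0 and 27 reads, Ptgds 1 and 7, and Hpgds 2 and 4. Tbxas1 had 9 and 3, and Akr1c18 had 7 and 5. The aldose reductase Akr1b3, which can form prostaglandin F2α, fell by 0.69 ± 0.03 on the log2 scale, from 269 ± 13.2 to 164 ± 3.98 TPM (adjusted p = 1.01e-22). Gstm2, a glutathione transferase, fell by 2.12 ± 0.27 on the same scale, from 5.03 ± 1.18 to 1.12 ± 0.38 TPM (adjusted p = 1.05e-09).

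Of 5 tested genes of breakdown and transport, 1 was higher and 2 lower. Ptgr1, a reductase that inactivates prostaglandins and leukotriene B4, fell in every inhibitor-treated library, with 40.2, 39.2 and 38.9 TPM against 13.6, 13.0 and 13.0 TPM and a log2 fold change of -1.57 ± 0.07 (SE, adjusted p = 4.64e-26). The exporter Abcc4 was higher, with a log2 fold change of 0.88. The importer Slco2a1 had 83 reads against 28 over the groups and a log2 fold change of -1.63, or -0.45 on the log2(TPM + 1) scale. Hpgd, the main enzyme of prostaglandin breakdown, had 0 reads in both groups.

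Most receptors for prostaglandins had few reads. Over the 3 libraries of each group, Ptger2 had 0 reads with IL-1β and 2 with the inhibitor, Ptger4 had 1 and 3, and Ptgfr had 1 and 0. The most abundant gene of this list, Ptgfrn, regulates a prostaglandin receptor and is not itself one. It fell by 0.86 ± 0.03 on the log2 scale, from 42.0 to 22.6 TPM (adjusted p = 6.21e-29). Pparg, a nuclear receptor that binds prostaglandin J2 derivatives and drives fat cell differentiation, had 41, 29 and 49 reads with IL-1β and 1, 2 and 3 with the inhibitor (log2 fold change -4.30 ± 0.39, adjusted p = 1.57e-14). On the log2(TPM + 1) scale its change was -1.61.

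In the neighbouring lipoxygenase and leukotriene list, 4 of 5 tested genes were lower and 1 was higher. Mgst2, which can make leukotriene C4, was at 166, 160 and 163 TPM with IL-1β and at 29.6, 42.5 and 37.3 TPM with the inhibitor, a log2 fold change of -2.12 ± 0.08 (SE, adjusted p = 3.01e-29). Its relative Mgst3 went from 19.2 to 2.93 TPM, with a log2 fold change of -2.69 (adjusted p = 8.82e-23). Aloxe3, a lipoxygenase of the skin barrier, was the gene that rose, from 1.88 to 4.21 TPM, with a log2 fold change of 1.15 (adjusted p = 8.67e-13), or 0.86 on the log2(TPM + 1) scale.

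**Figure D4:**
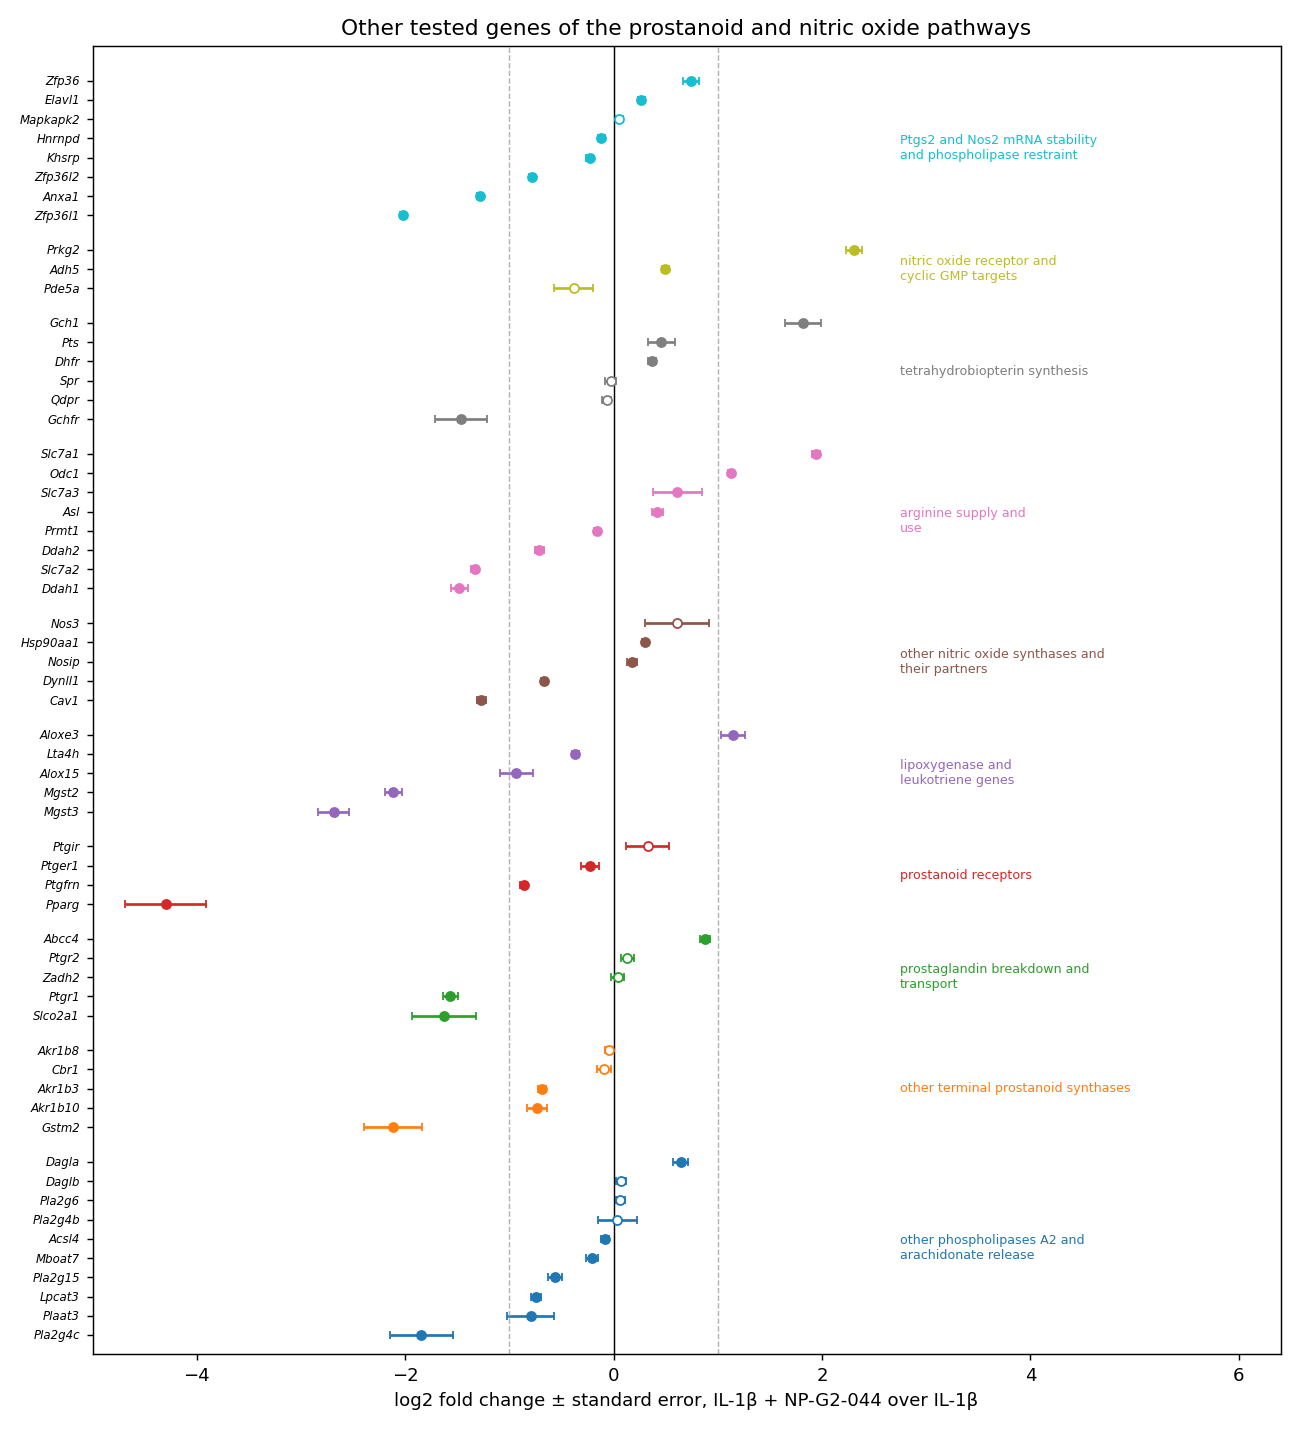
Log2 fold change ± SE, inhibitor-treated over IL-1β alone, of the 59 other tested genes of both pathways, grouped by role. Filled points passed an adjusted p of 0.05 by edgeR and open points did not, and dashed lines mark a log2 fold change of 1 in size; 13 filled points lie beyond the lower line and 5 beyond the upper one.

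The constitutive nitric oxide synthases had few reads in both groups. Nos1 had 3 reads over the IL-1β group and 4 over the other, and Nos3 had 36 and 57.9 (log2 fold change 0.61, adjusted p = 0.0646). Of 5 tested genes in this list, 2 were higher and 2 lower. Cav1, the caveolar coat protein that binds nitric oxide synthase, fell by 1.27 ± 0.05 on the log2 scale, from 61.3 ± 0.35 to 24.7 ± 1.31 TPM (adjusted p = 6.55e-31). Hsp90aa1, the chaperone that works with p23, was the most abundant and went from 676 to 812 TPM (log2 fold change 0.30, adjusted p = 6.58e-15).

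Of 8 tested genes of arginine supply and use, 4 were higher and 4 lower, close to the 40.2% and 39.8% of all tested genes. The cationic amino acid transporters, which bring arginine into the cell, did not all go in the same direction. Slc7a3 had 59 reads over the IL-1β group and 95 over the other. Its log2 fold change was 0.61 (adjusted p = 0.0166 by edgeR), and DESeq2 did not call it (adjusted p = 0.0924). The 2 more abundant transporters went in opposite directions. Slc7a1 was at 27.4, 31.9 and 32.3 TPM with IL-1β and at 118, 111 and 113 TPM with the inhibitor, a log2 fold change of 1.94 ± 0.04 (SE, adjusted p = 2.15e-19). Slc7a2 went from 44.8 ± 0.73 to 17.4 ± 0.25 TPM, a log2 fold change of -1.33 ± 0.03 (adjusted p = 7.93e-39). Its exons share 635 bases with the antisense gene Gm26584.

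Enzymes that use arginine or its relatives were also split. Odc1, which makes putrescine from ornithine, rose from 98.4 ± 2.12 to 210 ± 8.28 TPM (log2 fold change 1.13 ± 0.03, adjusted p = 2.40e-36). Ddah1 breaks down asymmetric dimethylarginine, an inhibitor of nitric oxide synthases, and it fell by 1.48 ± 0.08 on the log2 scale (adjusted p = 2.32e-22). Prmt1, an arginine methyltransferase and the most abundant gene of the list, changed little, from 323 to 283 TPM (log2 fold change -0.16, adjusted p = 4.59e-06). Asl, the partner of the undetected Ass1, had a log2 fold change of 0.42. The arginases were near 0, with 1 read against 0 for Arg1 and 14 against 5 for Arg2.

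In tetrahydrobiopterin synthesis, 3 of 6 tested genes were higher and 1 was lower. Gch1, the rate-limiting enzyme, was at 0.86, 0.81 and 1.31 TPM with IL-1β and at 3.38, 3.48 and 3.41 TPM with the inhibitor, a log2 fold change of 1.81 ± 0.17 (SE, adjusted p = 6.39e-14). Gchfr, which encodes its feedback regulator, fell by 1.46 ± 0.25 on the log2 scale, from 9.07 ± 0.79 to 3.24 ± 0.41 TPM (adjusted p = 8.87e-07). These 2 genes thus moved in the opposite direction to each other, and Gch1 in the opposite direction to Nos2. The recycling enzyme Qdpr, the most abundant of the list, was at 70.7 and 66.2 TPM and did not pass the test (adjusted p = 0.169).

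Of 9 symbols searched for the nitric oxide receptor and cyclic GMP targets, 4 were in the table, and none of these was a receptor subunit. Prkg1 had 4 reads over the IL-1β group and 2 over the other, too few to be tested. Of the 3 tested genes 2 were higher, and a link of either to nitric oxide was not tested. Prkg2, a cyclic GMP-dependent kinase that growth plate cartilage needs for normal maturation, was at 2.67, 2.83 and 3.79 TPM with IL-1β and at 15.3, 14.4 and 15.2 TPM with the inhibitor. That is a log2 fold change of 2.31 ± 0.08 (SE, adjusted p = 5.36e-32). Adh5, which removes S-nitrosoglutathione, rose from 113 to 156 TPM (log2 fold change 0.50, adjusted p = 3.94e-17).

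Of 8 genes that act on Ptgs2 or Nos2 mRNA or restrain phospholipase A2, 2 were higher and 5 lower. Zfp36l1 destabilises mRNAs with AU-rich elements, and it fell by 2.02 ± 0.03 on the log2 scale, from 161 to 38.8 TPM (adjusted p = 1.01e-46). Its exons share 1672 bases with the antisense gene Gm26669. Its relative Zfp36 was higher, with a log2 fold change of 0.74. Anxa1, an annexin known to inhibit cytosolic phospholipase A2, fell from 488 to 197 TPM, with a log2 fold change of -1.28 ± 0.03 (adjusted p = 4.71e-40).

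Markers of cell types were measured beside these genes, since Nos2 and the prostaglandin enzymes are also expressed outside cartilage. Of 10 chondrocyte markers 5 were in the table, with Acan among those not listed, and 4 of the 5 were below 1 TPM. Their summed level, 6.29 to 7.46 TPM with IL-1β and 11.4 to 11.6 TPM with the inhibitor, was almost wholly Sox9, which rose from 6.44 to 11.4 TPM (log2 fold change 0.85). Col2a1, the cartilage collagen and the other tested marker, was at 0.217 and 0.04 TPM and fell (log2 fold change -2.41). All 8 fibroblast markers were listed, with Thy1 at 0, and their summed level was 1106 to 1151 TPM with IL-1β and 337 to 351 TPM with the inhibitor, mostly Col1a2 at 1098 and 331 TPM. Of 5 tested fibroblast markers 4 were lower, and Pdgfra was higher, at 2.36 and 8.69 TPM (log2 fold change 1.91). Of 8 macrophage markers 7 were listed. Ptprc, the pan-leukocyte marker, was at 0 in every library, 6 of the 7 were below 1 TPM, and Cd68 rose from 12.4 to 130 TPM (log2 fold change 3.42), so that the sum was 11.6 to 14.5 TPM against 124 to 135 TPM. The 4 endothelial markers listed were each below 1 TPM. The fibroblast sum, set by Col1a2, moved in the direction of Nos2 and the macrophage sum, set by Cd68, in that of Pla2g4a and Pla2g12a, and their part in these results was not tested.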

How the data were processed

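RNA from 6 libraries, 3 per group, was extracted with Trizol and prepared with a TruSeq RNA kit per the labels, and sequenced and quantified by BGI. The submitters' processing notes name cutadapt, HISAT2 2.0, StringTie and mm10, without roles. Counting tool, annotation and strand setting: not given in the sources used here. The authors deposited, per gene and library, an estimated count (expected count, not normalized), TPM and FPKM. FPKM and group means served no step. The deposited TPM, which the authors computed per library, gave levels and shares.

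Counts were rounded, filtered with filterByExpr (minimum count 10), normalized with TMM and compared in edgeR 4.0.16 (robust glmQLFit, glmQLFTest, a quasi-likelihood test) under R 4.3.3, without covariates. Benjamini-Hochberg adjustment was over the 11983 genes tested. An SE is the size of the log2 fold change over the square root of F. Genes with an adjusted p below 0.05 were called, and the fold cutoff was a log2 fold change of 1. The steps were tested on simulated counts, in which far fewer genes changed than were called here. That setting cannot show how the steps perform on these data. The exposure time is from the study's methods. They call the libraries biological replicates, but the labels do not say that they came from separate cultures, so p-values measure only the spread between these samples. That spread was small, with a common biological coefficient of variation of 2.33% in edgeR. Differences between libraries of the same group had 1.54 to 2.39 times the variance that read sampling alone gives. Small SEs and p-values rest on this spread.

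Named were all 10 genes and, from the role lists, every gene past both cutoffs at a mean of at least 1 TPM and the most abundant tested gene of each role. For Ptgs2 and Nos2 the 3 genes of most similar pattern at a mean of at least 10 TPM were also named. Other genes were named after their values were seen. The genes and all lists were chosen with earlier results of these data known. Coordinates and sequences are from RefSeq (GRCm38.p6), and overlaps are from GENCODE vM21. The alternatives were DESeq2 1.42.0 or its size factors, library size alone, limma 3.58.1 with voom or on log2(TPM + 1) or log2(TPM + 0.1), no filter, a filter of 10 CPM in 3 libraries, the replicate number as a block, and each library left out in turn.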

Additional observations from a re-analysis of the deposited data

How the results depend on the processing

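Of the 10 genes and the tested pathway genes, no called gene changed sign under the 15 alternative fits, and among genes not called Pla2g4b, Zadh2 and Spr did (log2 fold changes 0.04, 0.04 and -0.03). At a filter of 10 CPM in 3 libraries, 6 of the 10 genes were tested, since Ptgs1 and Ptges have too few reads. Then 1 was called lower and 1 was lower past both cutoffs, and 3 pathway genes were higher and 7 lower past both cutoffs, among 43 tested. Without a filter 8 pathway genes were higher past both cutoffs, among 92 tested. With limma on log2(TPM + 1), 1 of the 10 genes was lower past both cutoffs, because Ptges was at -0.72, and Pparg was at -1.61 and Gch1 at 1.16. From CPM, which is not per length, the difference in the Ptges share was -0.836 percentage points. Called genes among the 10 numbered 4 to 5 higher and 3 lower when each library was left out. Ptges2 was lost without the third IL-1β library and with DESeq2. Of the called pathway genes, Slc7a3, Acsl4 and Ptger1 were lost with DESeq2. Qdpr was called by limma on TPM (adjusted p = 0.021). Samples with the same replicate number did not deviate together (correlations of -0.273, -0.0443 and -0.0548 over 6598 genes), and none correlated best with its own number. With the replicate block, 5 of the 10 genes were called higher and 3 lower, 2 and 2 past both cutoffs, as without it, and 9498 genes were called in place of 9584. Depth limits Ptgs1, Ptges, Ptgis, Ass1 and most prostaglandin receptors, which had few or no reads. It also limits Gch1 (79 reads over the IL-1β group and 293 over the other), Gchfr (103 and 39) and Gstm2 (121 and 29).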
